A study of Zea mays with 303 samples.

Results

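GAPC2, GAPC3 and PPDK2 are 3 maize genes of central carbon metabolism, and their transcripts were followed here through single cells of the anther, the pollen-forming organ. They were chosen as named rows of a table of 17140 features, with earlier results of the same table known, so their levels are given as a description with no test. The cells came from dissected anthers of the inbred line W23 bz2 at early meiosis and were fixed in Farmer's Solution, released by protoplasting enzymes and sorted with a BioSorter or a Hana device. Every sample was 1 cell, and the cells formed a single group with no treatment and no labelled cell type. In CEL-Seq2 each captured transcript is tagged with a unique molecular identifier (UMI) and each cell with a barcode, and many cells are sequenced as 1 pool. The sample names give 4 pools, numbered 6, 11, 28 and 29, of 55, 78, 79 and 91 cells. The labels do not say what else set the pools apart, so a pool is treated as a technical batch. No plant or culture was named for any cell, so there are no replicates, and every interval covers counting error only.

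GAPC2 and GAPC3 encode cytosolic glyceraldehyde-3-phosphate dehydrogenases, the glycolytic enzymes that oxidise glyceraldehyde-3-phosphate and yield NADH. In maize seedlings GAPC3 is known as a form that responds to low oxygen, and GAPC2 as a form with steadier expression. PPDK2 encodes pyruvate orthophosphate dikinase, which interconverts pyruvate and phosphoenolpyruvate and is best known from C4 photosynthesis. The gene table used here lists PPDK2 under a cytosolic alias. Oxygen, enzyme activity and metabolites were not measured. Maize GAPC genes form close pairs of copies, and the labels do not say how reads shared between copies were counted, so each GAPC level may include or lack reads of a relative.

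The table held 800166 UMIs, with a median of 1780 UMIs per cell. Cells of pools 6, 11, 28 and 29 had median depths of 2942, 2803, 1162 and 1746 UMIs, so the pools were not equally able to show a rare transcript. The pools shared most well barcodes. Of 96 barcode numbers, 91 occurred in more than 1 pool and 44 in every pool. No cells had identical counts.

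GAPC2 was spread widely over the cells. It had 513 UMIs, which is 641 counts per 1000000 UMIs (CPM; 95% Poisson interval 587 to 699), and 65.7% of the cells held at least 1 of them (exact binomial interval 60.0% to 71.0%). Per cell it ranged from 0 to 14 UMIs, and its 10 richest cells held 17.2% of its UMIs. If every cell carried GAPC2 as the same fraction of its UMIs, counting alone would give a UMI in 200.1 cells. The number of cells seen was 0.994 times this, against a median of 0.922 over the 1286 features with at least 100 UMIs.

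GAPC3 was concentrated in few cells. Its 335 UMIs (419 CPM, 375 to 466) lay in 94 cells (31.0%, 25.9% to 36.6%), whereas an even spread would have put a UMI in 166.5 cells. The ratio of seen to even was 0.565, lower than in all but 7.08% of those 1286 features. GAPC3 ranged from 0 to 37 UMIs per cell, with a single UMI in 51 cells and at least 5 in 15 cells. The 10 richest cells held 54.3% of its UMIs, and the 9 richest were enough to hold 50% of them, against the 48 richest for GAPC2. The mean of the per-cell levels was 314 CPM, below the summed level, and the cells richest in GAPC3 were deep, with a median of 6431 UMIs among the 15. By well barcode, GAPC3 stood at 326 CPM (277.9 to 380) in cells of the lower barcode numbers, 1 to 48, and at 570.1 CPM (488 to 662) in the higher, whose cells had median depths of 2759 and 1260 UMIs. The cell richest in GAPC3 was among the latter, and the part of barcode or depth in this difference was not tested. GAPC2 was at 662 and 606 CPM and PPDK2 at 195.3 and 227.4 CPM in these sets of cells, with overlapping intervals.

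PPDK2 lay between these patterns. Its level was 207.5 CPM (177.1 to 241.5), and its UMIs were found in 78 cells (25.7%, 20.9% to 31.1%), against 111.2 cells for an even spread, a ratio of 0.701 that exceeded those of 14.7% of the features. It ranged from 0 to 9 UMIs per cell, and 8 cells had at least 5. Its mean per-cell level was 310 CPM, above the summed level, and cells with at least 5 UMIs of PPDK2 had a median depth of 3656 UMIs. No kind of cell known to lack these transcripts was labelled, so a single UMI in a cell cannot be told apart from free RNA. The fraction of cells with a UMI depends on depth. With every cell thinned to 800 UMIs, which set aside the 62 shallower cells (11, 6, 27 and 18 of pools 6, 11, 28 and 29), a UMI would be found in 40.9% of cells for GAPC2, 17.3% for GAPC3 and 16.0% for PPDK2.

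**Figure D1:**
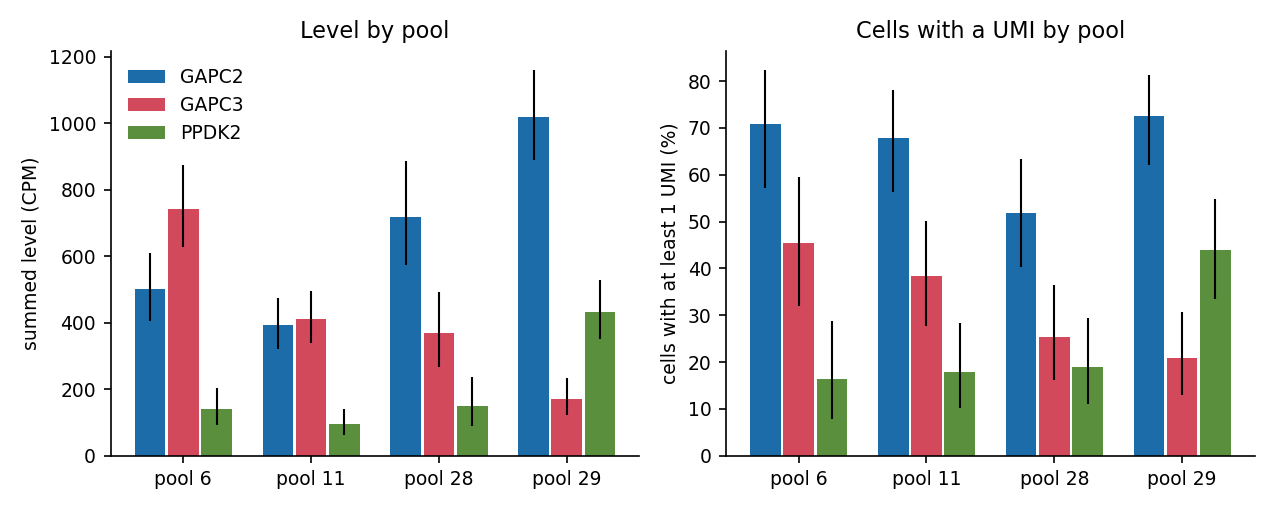
The left panel shows the summed level (CPM) of each gene in each of the 4 pools, with 95% Poisson intervals, and the right panel the share of cells with at least 1 UMI, with exact 95% binomial intervals. GAPC2 and PPDK2 stood highest in pool 29, at 1018 and 433 CPM, and GAPC3 highest in pool 6, at 743 CPM.

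The GAPC genes differed in their order over the pools. For pools 6, 11, 28 and 29, GAPC2 stood at 501 CPM (406 to 611), 393 CPM (321 to 476), 719 CPM (575 to 887) and 1018 CPM (890 to 1160). Pool 29 was apart from every other pool in counting error, while the intervals of pools 6 and 11 overlapped, as did those of pools 6 and 28. GAPC3 stood at 743 CPM (627 to 875), 412 CPM (338 to 496), 368 CPM (267.1 to 494) and 171.2 CPM (121.2 to 235.1) in the same order of pools. Here pool 6 was above and pool 29 below all others in counting error, and pools 11 and 28 overlapped. These levels rested on few cells. The richest 3 cells were enough to hold 50% of the GAPC3 UMIs in each of pools 6, 11 and 28, and the richest 5 in pool 29. The order of the pools without such cells was not tested. The GAPC3 share of the UMIs of both GAPC genes followed the same order, with 59.8% (53.3% to 66.0%) for pool 6, 51.2% (44.3% to 58.1%) for pool 11, 33.8% (25.8% to 42.7%) for pool 28 and 14.4% (10.4% to 19.2%) for pool 29. Over all cells this share was 39.5% (36.2% to 42.9%) of 848 UMIs. It is a share of UMIs, and how fully each gene's transcripts were captured was not measured.

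PPDK2 was highest in pool 29. Its levels over the pools, taken as before, were 139.4 CPM (91.9 to 202.8), 94.4 CPM (61.1 to 139.3), 150.4 CPM (89.1 to 237.7) and 433 CPM (350.4 to 528), from 27, 25, 18 and 96 UMIs. The first 3 pools overlapped in their intervals, and pool 29 lay above them all. Without pool 29 its level over the remaining cells was 121.1 CPM in place of 207.5 CPM.

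Set against pools 6 and 11 together, pools 28 and 29 had a GAPC2 level higher by 1.04 on the log2 scale (10 CPM added to both sides), at 913 against 438 CPM. PPDK2 was higher by 1.48, at 334 against 113.4 CPM. GAPC3 was lower, with a log2 fold of -1.17, at 240.1 against 552 CPM. Of all 3171 features with at least 50 UMIs, 10.4% were higher by a log2 fold of 1 or more in pools 28 and 29 and 5.14% were lower by as much, and the median log2 fold was 0.20. The folds of GAPC2, PPDK2 and GAPC3 were above those of 90.2%, 95.7% and 3.91% of these features. For GAPC2 the log2 fold was under 1 with 50 CPM added (0.98) or with the mean of per-cell levels (0.82). Each pool was 1 library, so the pool and any difference in anthers or handling cannot be told apart. The cells of a pool are a mixture, so fewer cells with a transcript and less transcript per cell can be separated only by the values per cell that follow.

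Whether the GAPC copies were used by the same cells was asked first by joint detection. The 46 cells with fewer than 500 genes detected were set aside for this. Of the others, 65 had UMIs of both genes, 22 of GAPC3 alone and 47 of neither, and the rest had GAPC2 alone. GAPC2 was seen in 74.7% (64.3% to 83.4%) of the 87 cells with a GAPC3 UMI and in 72.4% (65.0% to 78.9%) of the 170 cells without one. These shares overlap, so detection of GAPC3 did not separate cells with GAPC2 from cells without it. The cells with GAPC3 were deeper, however, with medians of 3548 against 1779 UMIs.

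These cells were then split by depth into 3 classes of about equal number. In the shallowest class (591 to 1515 UMIs) GAPC2 was seen in 41.2% (18.4% to 67.1%) of the 17 cells with GAPC3 and in 57.4% (44.8% to 69.3%) of the 68 without. In the middle class (1541 to 3425 UMIs) the shares were 78.3% and 74.6%, and in the deepest (3451 to 9934 UMIs) 85.1% (71.7% to 93.8%) and 94.9% (82.7% to 99.4%). All 3 pairs of intervals overlapped. In the shallowest and deepest classes GAPC2 was thus seen somewhat less often beside GAPC3, within counting error, and in the middle class about as often. Thinned to 800 UMIs, the expected shares were 32.7% in cells with GAPC3 and 42.6% in cells without. Within pools 6, 11 and 29 GAPC2 was seen in 82.6%, 77.8% and 88.9% of cells with GAPC3 and in 76.0%, 69.8% and 78.7% of cells without. In pool 28 the order was the other way, at 47.4% and 63.4%, and the intervals overlapped within each pool. At this depth detection alone showed neither a pairing nor a separation of the GAPC transcripts beyond counting error.

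**Figure D2:**
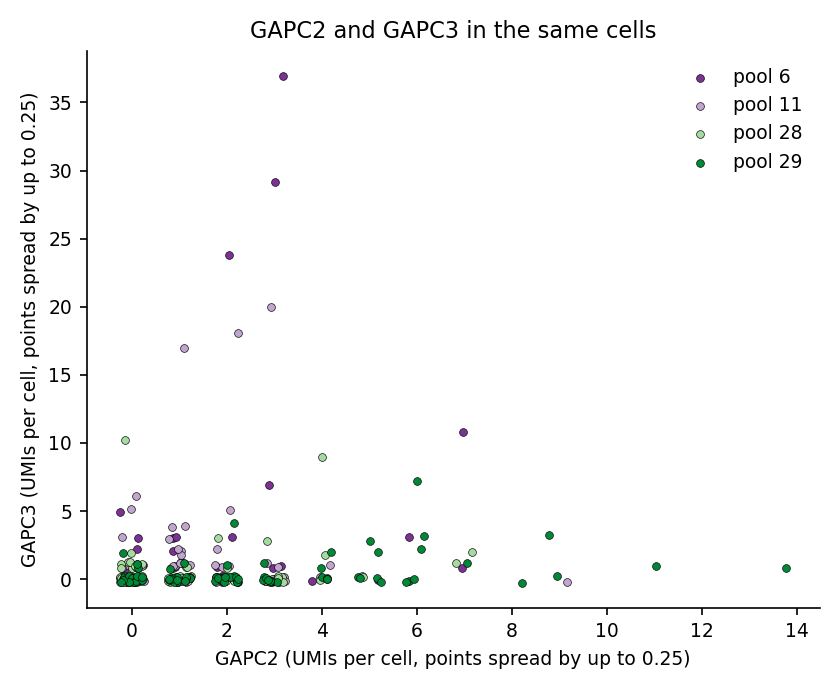
Each point is 1 cell, with its GAPC2 UMIs on the x axis and its GAPC3 UMIs on the y axis, coloured by pool and spread by up to 0.25 UMIs so that equal values can be seen. The cells with most GAPC3 (17 to 37 UMIs) had 1 to 3 UMIs of GAPC2, and the cells with most GAPC2 (8 to 14 UMIs) had 0 to 3 UMIs of GAPC3.

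The cells richest in either gene were looked at next. They were picked on these counts, so the lead of the picked gene follows from the choice and shows no separation by itself. The cell with most GAPC3 was in pool 6 and held 37 UMIs of GAPC3 and 3 of GAPC2. Next were a cell of pool 6 with 29 and 3 UMIs and another of pool 6 with 24 and 2 UMIs. In pool 11 the richest cells held 20 and 3, 18 and 2, and 17 and 1 UMIs of GAPC3 and GAPC2. GAPC2 was thus still detected in each of these 6 cells, as a small part of their GAPC UMIs. Its level in them ran from 155.5 to 457 CPM, beside 501 and 393 CPM over all cells of pools 6 and 11. At the other end, the cell with most GAPC2 was in pool 29 and held 14 UMIs of GAPC2 and 1 of GAPC3, followed by a cell of the same pool with 11 and 1 UMIs. GAPC3 was at 103.1 and 185.6 CPM in them, beside 171.2 CPM over all cells of pool 29. A cell of pool 6 with 7 UMIs of GAPC2 and 11 of GAPC3 was high in both.

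Expressed per cell, the GAPC3 share of GAPC UMIs covered the whole range. It was computed for the 50 cells with at least 5 GAPC UMIs. In 20 of them it was at most 20%, in 18 it lay between, and in 12 (24.0%) it was at least 80%. Of the 50 cells, 33 had UMIs of both genes, 13 had GAPC2 alone and 4 had GAPC3 alone. The exact binomial interval of the cell's own share lay wholly above the 39.5% of all cells in 10 cells and wholly below it in 5, and included it in 35. The summed share of a pool ran from 59.8% in pool 6 to 14.4% in pool 29. These counts therefore mix differences between cells with differences between pools. The ranges are limits drawn on a continuous scale, and 5 cells lay within 5 percentage points of the lower limit and 2 of the upper. Of the 12 cells with a high share, 4 were in pool 6, 7 in pool 11, 1 in pool 28 and none of the 21 cells computed in pool 29. Without pool 11 the high range held 12.8% of the cells, and without pool 29 it held 41.4%. Among the 14 cells with at least 10 GAPC UMIs, 7 were in the high range (50.0%) and 2 in the low. With at least 3 GAPC UMIs asked, the high range held 14 cells, 13.3% of those computed, so its size depended on the minimum. The minimum counts UMIs of GAPC3 itself, which reached 37 in a cell against 14 for GAPC2, so a higher minimum favours GAPC3-rich cells.

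**Figure D3:**
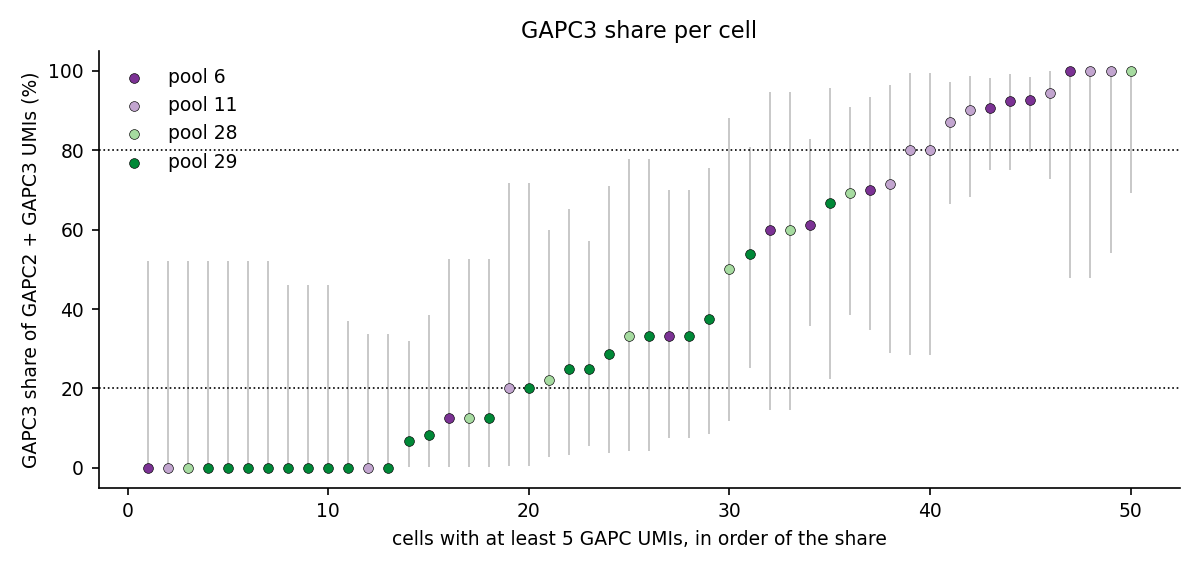
Each point is 1 of the 50 cells with at least 5 UMIs of GAPC2 and GAPC3 together, in order of the GAPC3 share of those UMIs (y axis, percent), with its exact 95% binomial interval in grey and the pool as colour. Dotted lines mark 20% and 80%, and the shares run from 0 in 13 cells to 100% in 4 cells with values at many levels between.

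No cell had at least 5 UMIs of both PPDK2 and GAPC3, but only 8 cells reached this for PPDK2 and 15 for GAPC3. Cells this few would rarely coincide even if the genes were unrelated, so this absence shows no separation of PPDK2 and GAPC3. Among cells with at least 500 genes, 19 had UMIs of both, and GAPC3 was seen in 26.0% (16.5% to 37.6%) of the 73 cells with PPDK2 and in 37.0% (30.0% to 44.4%) of those without. These intervals overlapped, and the medians of depth were 1947 and 2393 UMIs. Within pools 6, 11 and 28 the shares with and without PPDK2 were 44.4% and 48.7%, 28.6% and 41.1%, and 15.4% and 36.2%. Pool 29, which held 37 of the 73 cells with PPDK2, went the other way, at 24.3% and 21.4%, and the intervals overlapped in every pool. With 2 UMIs asked of each gene, 2 cells had both, which is 5.56% (0.680% to 18.7%) of 36 cells with PPDK2, against 18.6% (13.7% to 24.3%) of the cells without. None of the 8 cells with at least 5 PPDK2 UMIs had a UMI of GAPC3, and of the 15 cells with at least 5 GAPC3 UMIs 1 had a UMI of PPDK2. These cells also differed in pool, since 5 of the 8 were in pool 29 and 12 of the 15 in pools 6 and 11. GAPC2 was seen in 7 of those 8 cells and in 11 of those 15. Of all cells with at least 500 genes, 73.2% had a UMI of GAPC2, 33.9% of GAPC3 and 28.4% of PPDK2. The picked cells were few and were chosen on these counts, so they show no separation by themselves. For PPDK2 and GAPC2 the shares were 76.7% (65.4% to 85.8%) of cells with PPDK2 and 71.7% (64.6% to 78.1%) of cells without. All 3 transcripts were seen together in 15 of all cells (4.95%), and none of them in 59 cells with a median of 678 UMIs.

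Correlations over cells were weak. Over the cells with at least 500 genes, the Pearson correlation of log2(CPM + 10), centred within pools, was -0.04 between GAPC2 and GAPC3, -0.01 between GAPC2 and PPDK2 and -0.11 between GAPC3 and PPDK2. Among features with at least 100 UMIs in these cells, 7.18% had a lower correlation with GAPC2 than GAPC3 did. For PPDK2 this was 14.1% with GAPC2 and 4.31% with GAPC3. For the GAPC pair the values within pools were 0.04, 0.01, -0.18 and 0.02 for pools 6, 11, 28 and 29. For GAPC3 and PPDK2 they were -0.06, -0.16, -0.21 and -0.06. The cells of a pool share a library, and weak correlations in counts this sparse are no finding.

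The levels were then set out by kind of cell as far as the data define it. The same cells were clustered on genes that did not include the 3 members, which gave 7 clusters, numbered by size. These are groups found in the same table, with no label and no name.

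**Figure D4:**
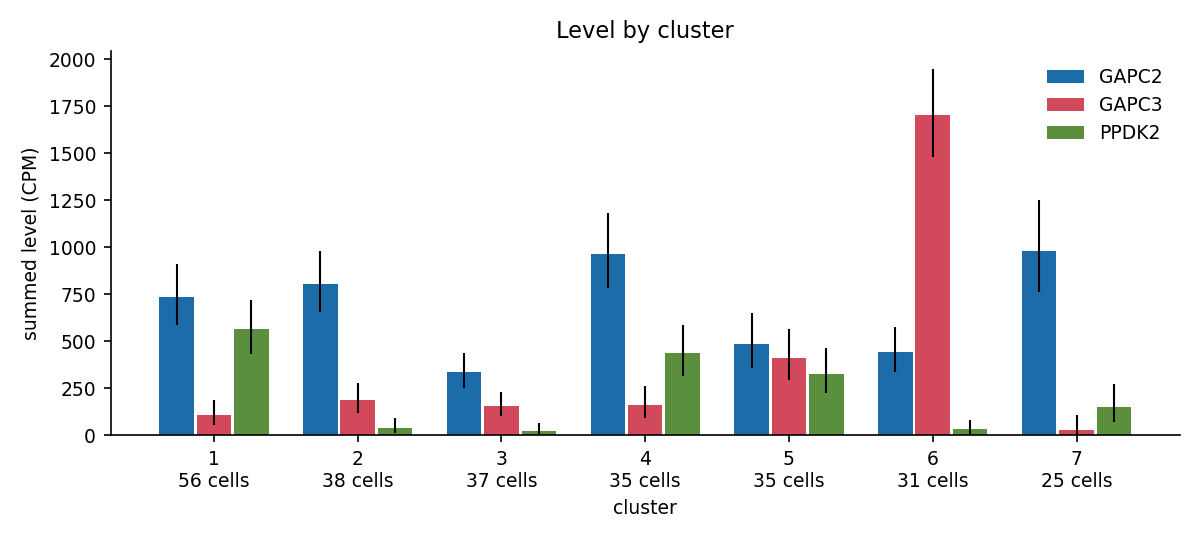
Bars show the summed level (CPM) of each gene in each of the 7 clusters, with 95% Poisson intervals, and the number of cells stands under each cluster. GAPC3 reached 1703 CPM in cluster 6 and at most 412 CPM elsewhere, PPDK2 was highest in clusters 1, 4 and 5, and GAPC2 varied from 337 to 983 CPM.

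GAPC2 was seen in every cluster, at levels from 337 to 983 CPM. Its level was 983 CPM (760 to 1251) in cluster 7, 966 CPM in cluster 4, 807 CPM in cluster 2 and 735 CPM (584 to 912) in cluster 1, and the intervals of these 4 clusters overlapped. It was 486 CPM in cluster 5, 444 CPM in cluster 6 and 337 CPM (253.3 to 440.0) in cluster 3, and these again overlapped. A UMI was seen in 62.9% to 84.0% of the cells of each cluster. Clusters 4 and 7 came almost wholly from pools 28 and 29, where GAPC2 was higher in general. Within pools 28 and 29 the log2 folds of cluster 7 over the other cells were -0.18 and 0.10, and those of cluster 4 were -0.42 and 0.27, so the higher levels of these clusters did not hold inside the pools. Cluster 2 had log2 folds of 0.31, 0.54, 1.06 and 0.25 within pools 6, 11, 28 and 29. Cluster 3 had -0.88 and -0.49 within pools 6 and 11, where it could be compared, and -1.07 over all pools. The median fold in cluster 3 was -0.80 over the 1557 features outside the clustering with at least 50 UMIs. Of these features 34.9% had a lower fold than GAPC2, so a decrease of this size was common there. In clusters 1 and 5 the sign changed between pools.

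GAPC3 was highest in cluster 6, where it was seen in 77.4% (58.9% to 90.4%) of 31 cells. Its summed level there, 1703 CPM (1481 to 1949), stood beside 178.4 CPM (147.6 to 213.9) over the remaining clusters, a log2 fold of 3.18. The median per cell was lower, at 791 CPM in cluster 6 and 0 CPM over the remaining clusters. Of 1557 features outside the clustering with at least 50 UMIs, 18.4% were higher by a log2 fold of 1 or more in cluster 6 and 24.3% were lower by as much. GAPC3 stood above 98.7% of them. Cluster 6 held 12 of the 15 cells with at least 5 GAPC3 UMIs and 9 of the 12 cells with a GAPC3 share of at least 80%, while the other 3 were in cluster 5. Among features with a symbol other than the members, it was led by EZ1, a Polycomb histone methyltransferase, BIPE2, an endoplasmic reticulum chaperone, and SIP1-2, a small basic aquaporin, of which SIP1-2 entered the clustering.

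Cluster 5 was led by the chromatin protein gene HMGIY2, the tubulin gene TUBA3 and MNB1B. All of these entered the clustering, so their lead follows in part from it. Outside cluster 6, GAPC3 was next highest in cluster 5, at 412 CPM (293.1 to 563). It was 185.6 CPM in cluster 2, 162.8 CPM in cluster 4, 156.1 CPM in cluster 3 and 107.5 CPM (55.6 to 187.8) in cluster 1, with overlapping intervals. Cluster 7, led by the photosynthesis genes CAB1, PSBQ1 and PSAH, had 2 UMIs of GAPC3, which is 29.8 CPM (3.61 to 107.6), beside 66 UMIs of GAPC2. The GAPC3 share of GAPC UMIs was 79.3% (74.0% to 84.0%) in cluster 6, 45.9% (35.0% to 57.0%) in cluster 5, 31.6% in cluster 3, 18.7% in cluster 2, 14.4% in cluster 4, 12.8% in cluster 1 and 2.94% (0.358% to 10.2%) in cluster 7. These shares are summed over pools that differed in the share themselves, and the clusters differed in their pools. Cluster 3 had 11 and 22 of its 37 cells in pools 6 and 11, whereas cluster 4 had 12 and 20 of its 35 cells, and cluster 7 all 25, in pools 28 and 29, so the order of these clusters and the pool cannot be told apart. Against all other cells, cluster 6 included, GAPC3 was lower by a log2 fold of 1 or more in clusters 1, 2, 3, 4 and 7. Of the 1557 features, 16.8%, 15.7%, 38.7%, 8.86% and 29.9% were lower by as much in these clusters. Within pools this held for clusters 1, 3 and 7 wherever they could be compared. In cluster 4 the log2 folds were -0.81 and -0.70 in pools 28 and 29, so its fold of 1 or more was lost within pools. In cluster 2 they were -1.02, -2.26 and -1.42 in pools 6, 11 and 28, and 0.71 in pool 29, where the direction was the other way. Cluster 6, at 1703 CPM, was among the other cells in all these folds, so they follow in part from its high level. Over the cells outside cluster 6, GAPC3 stood at 178.4 CPM (147.6 to 213.9). Cluster 2 was not below this level, clusters 3 and 4 were near it, and the interval of cluster 1 overlapped it. Only the interval of cluster 7 lay wholly below it. Folds with cluster 6 left out were not computed.

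Neither GAPC gene replaced the other fully in cluster 6. Of its 31 cells, 18 had UMIs of both genes, 6 of GAPC3 alone, 3 of GAPC2 alone and 4 of neither. GAPC2 was lower there by a log2 fold of -0.60, at 444 CPM (334 to 578) against 676 CPM (614 to 742) in the other cells. The direction was the same in each pool, with log2 folds of -0.96, -0.43, -0.41 and -0.68 in pools 6, 11, 28 and 29. Within each pool, however, the intervals of cluster 6 and of the other cells overlapped. Of the 1557 features, 31.8% had a lower fold in cluster 6 than GAPC2, so a decrease of this size was common there.

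**Figure D5:**
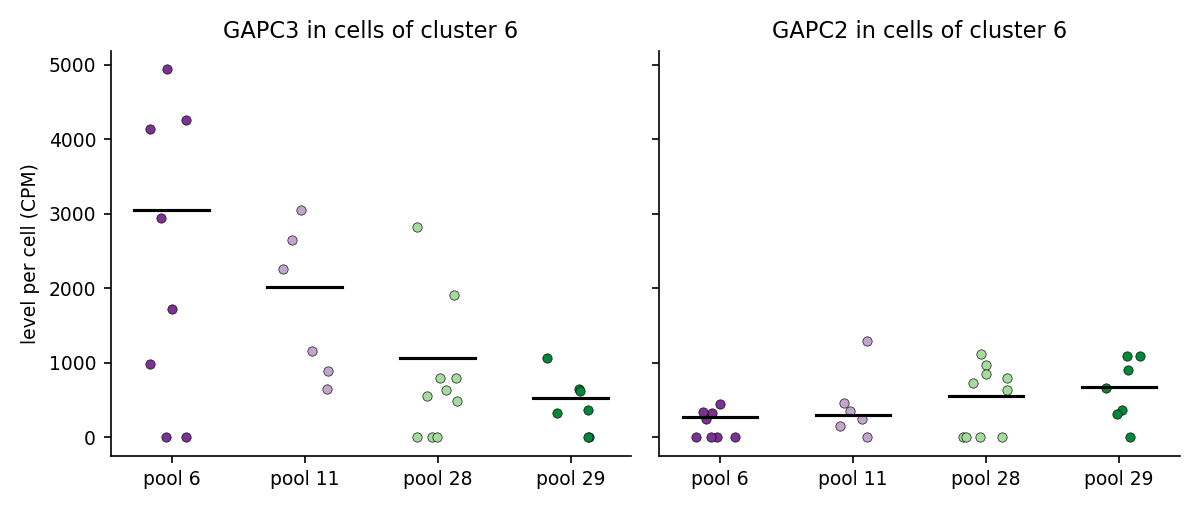
Each point is 1 of the 31 cells of cluster 6, by pool, with its level of GAPC3 (left) or GAPC2 (right) in CPM on a shared axis, and black lines mark the summed level of the pool's cells. GAPC3 ran from 3053 CPM in pool 6 to 531 CPM in pool 29, and GAPC2 from 272.02 to 678 CPM.

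Inside cluster 6 the pools differed in the same direction as over all cells. GAPC3 stood at 3053 CPM (2486 to 3709) in 8 cells of pool 6, 2011 CPM (1559 to 2554) in 6 cells of pool 11, 1060 CPM (686 to 1564) in 10 cells of pool 28 and 531 CPM (315 to 839) in 7 cells of pool 29. Per cell, pool 6 ranged from 0 to 37 UMIs, pool 11 from 1 to 20, pool 28 from 0 to 10 and pool 29 from 0 to 7, so the cells of different pools overlapped. GAPC2 was at 272.02 CPM (124.4 to 516), 300.2 CPM (143.9 to 552), 551 CPM (293.4 to 942) and 678 CPM (430 to 1018) in the same cells. The GAPC3 share was 91.8% (85.0% to 96.2%) in pool 6, 87.0% (77.4% to 93.6%) in pool 11, 65.8% (48.6% to 80.4%) in pool 28 and 43.9% (28.5% to 60.3%) in pool 29. In the cells outside cluster 6 the share was 32.5%, 29.8%, 21.7% and 8.64%. In every pool the share was higher in cluster 6 than outside it, with no overlap of the intervals, and the log2 folds of GAPC3 were 3.50, 3.47, 2.32 and 2.25. The cells of cluster 6 had median depths of 2977, 6023, 1732 and 4611 UMIs in the same order of pools. The part of depth in these differences was not tested.

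Markers of other kinds of cell were few. In cluster 6 the photosynthesis genes of the endothecium list stood at 96.8 CPM for CAB1, 48.4 CPM for RBCS and 32.3 CPM for PSAH, and RCA1 had no UMI, for which 3 counts would be 24.2 CPM. In cluster 7 they reached 6838, 1922, 715 and 89.4 CPM. C2, the flavonoid gene chalcone synthase, was at 40.4 CPM in cluster 6 and at 3907 CPM in cluster 2. The epidermis marker CR4 and the meiocyte marker RAD51B had 1 UMI each in cluster 6. They had only 12 and 6 UMIs over all cells, and each was the 1 matched feature of its list. Whether cluster 6 held epidermis or meiocyte cells therefore cannot be read from them. No name of the tapetum or vascular lists matched a feature. The part of any of these kinds of cell in the GAPC3 pattern was not tested.

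PPDK2 had yet another order over the clusters. It was 565 CPM (434 to 722) in cluster 1, 437 CPM (317 to 589) in cluster 4 and 328 CPM (222.6 to 465) in cluster 5, and neighbours in this order overlapped. Cluster 7 followed with 148.99 CPM (71.4 to 273.99), and clusters 2, 6 and 3 had 40.4, 32.3 and 25.0 CPM, from 5, 4 and 4 UMIs. Members aside, cluster 1 was led by TIF, the small RNA factor gene SGS3 and the ATP synthase gene ATPA, and cluster 4 by the aquaporin genes TIP1-1 and PIP2-2 and the superoxide dismutase gene SODCC.1. Of these, SGS3, PIP2-2 and SODCC.1 entered the clustering, and the log2 folds of SGS3 and ATPA in cluster 1 were 0.92 and 0.82. Of the clusters low in PPDK2, cluster 2 was led by C2 and the aquaporin genes NIP1-1 and TIP1-1, and cluster 3 by the plastid-encoded genes ndhE, psbB and ndhI. The log2 folds of PPDK2 were 1.89 in cluster 1 and 1.30 in cluster 4, where 6.81% and 5.01% of the 1557 features were higher by 1 or more. Clusters 2, 3 and 6 had log2 folds of -2.29, -2.90 and -2.55, where 15.7%, 38.7% and 24.3% of the features were lower by 1 or more. These folds were below 0 in each pool compared, but in cluster 2 the value within pool 28 was -0.51. In cluster 1 the log2 folds within pools 6, 11, 28 and 29 were 1.37, 3.11, 2.62 and 1.78, with levels of 270.4, 489, 645 and 1143 CPM, so PPDK2 was higher than in the other cells of every pool. Cluster 4 was higher by 0.07 in pool 28 and 0.86 in pool 29, the pools in which it could be compared. PPDK2 reached a log2 fold of 0.77 in cluster 5, with values of 0.86 to 2.11 within pools. With finer clusters, at a resolution of 1.5, the group matching cluster 5 had a log2 fold of -0.91, and with 10 neighbours one of -0.29, so the level of PPDK2 in that cluster rested on where its border lay. Of the 8 cells with at least 5 PPDK2 UMIs, 5 were in cluster 1, 2 in cluster 4 and 1 in cluster 5.

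Other genes of carbon metabolism with a name were scarce. Of 69 names searched, 5 matched a feature, and 2 of these were GAPC2 and GAPC3 under their aliases gpc2 and gpc3. No feature carried the name of GAPC1, GAPC4 or PPDK1, which says nothing about whether those genes were expressed, since most features carry an unnamed identifier. PHI1, which encodes glucose-6-phosphate isomerase and acts upstream of the GAPC enzymes in glycolysis, had 30 UMIs in all. In cluster 6 it was at 40.4 CPM (13.1 to 94.2), and over the remaining clusters at 38.1 CPM (24.7 to 56.3), so no difference was detectable at this depth. The mitochondrial ADP/ATP carrier genes ANT1 and ANT2 were higher in cluster 6, at 1251 against 519 CPM and 718 against 204.4 CPM. Unlike GAPC3, they kept similar levels over the pools of that cluster, at 931 to 1568 CPM for ANT1 and 551 to 931 CPM for ANT2, with overlapping intervals.

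The features most like each member were ranked over 1254 features with at least 100 UMIs, by the Pearson correlation centred within pools over the cells with at least 500 genes. GAPC3 was followed most closely by the unnamed features Zm00001d012176 (r = 0.50, and 0.39, 0.71, 0.44 and 0.44 within pools 6, 11, 28 and 29) and Zm00001d005460 (r = 0.49). Among features with a symbol SIP1-2 came first (r = 0.32, with 0.25 to 0.51 within pools), then TUBA3 (0.21) and RPL17 (0.21). Over all 1254 features the median r with GAPC3 was 0.08, in a range of -0.29 to 0.50. ANT1, with an r of 0.20, was above 84.3% of the features, so values near 0.2 were not rare. The lowest with a symbol were the plastid-encoded genes ndhI (-0.17), rpoB (-0.15) and atpI (-0.14), each negative in all 4 pools.

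PPDK2 was most like Zm00001d020875 (r = 0.48, with 0.33 to 0.63 within pools) and Zm00001d024119 (r = 0.40). With a symbol, the plasma membrane aquaporin genes PIP2-2 (0.22) and PIP2-1 (0.18) and TIF (0.17) came first, all positive in every pool. Lowest among features with a symbol were psbA (-0.22) and atpI (-0.20), which are plastid-encoded, and CAB1 (-0.18). The median r over all features was -0.02 for PPDK2 and 0.06 for GAPC2. GAPC2 had no close match. Its highest values were 0.29 for Zm00001d014417 and 0.27 for Zm00001d018409, and ATPA (0.21), RPS4 (0.20) and SGS3 (0.19) led the features with a symbol. Its lowest with a symbol were TIF (-0.06), IPP (-0.06) and HMGIY2 (-0.05), with signs that changed between pools. These correlations describe shared cells within 4 libraries, and between sparse counts they are limited by depth.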

How the data were processed

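Per the labels, the libraries are CEL-Seq2 from single sorted cells. The authors deposited 1 table of UMI counts, not normalized, with features in rows and cells in columns. The submitters' processing notes name HISAT2 and B73 RefGen_v4; counter, annotation release and cell filter are not given in the sources used here. A gene table (assembly Zm-B73-REFERENCE-NAM-5.0) held all 3 members as aliases; being of another build, it was used for names alone. Levels are UMIs per 1000000 (CPM) over all cells, with exact 95% Poisson intervals; shares have exact binomial (Clopper-Pearson) intervals (scipy 1.17.1). Folds add 10 CPM. Joint detection, correlations and clusters used the 257 cells with at least 500 genes; 46 were set aside. Shares at 800 UMIs are exact expectations over all draws, chosen over 1 draw after seeing the data. Clustering (scanpy 1.11.5, Leiden, igraph 0.11.9, resolution 1, 2000 variable genes, 15 components, 15 neighbours) drew a random 50% of features, without the members, all listed genes and plastid-encoded features; no doublet caller was run. With 1 group and no replicates, no test was made. Statistics were checked on simulated data. Members and lists were chosen with earlier results of these data known. The naming rule took the members, matched list genes, and per member the 5 features of highest correlation (of which 2 without a name are printed) and the 3 highest and 3 lowest with a symbol; for the clusters described, the 3 symbols of largest fold other than the members.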

Additional observations from a re-analysis of the deposited data

How the results depend on the processing

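For 19 results, 81 alternative values stayed within counting error or the spread of the pools and 25 moved beyond it. Leaving the 20 most abundant features out of the total gave 772, 504 and 249.7 CPM for GAPC2, GAPC3 and PPDK2, and the mean of per-cell levels gave 314 CPM for GAPC3 and 310 CPM for PPDK2. With each pool left out in turn, GAPC2 ranged from 496 to 764 CPM, GAPC3 from 315 to 514 CPM and PPDK2 from 121.1 to 263.4 CPM; the share of cells with PPDK2 ranged from 17.9% to 28.4%, and the cells in the high range of the GAPC3 share from 12.8% to 41.4%. Thinned to 800 UMIs, a UMI was expected in 40.9%, 17.3% and 16.0% of cells, and cells with at least 500 genes alone gave 73.2% for GAPC2. Limits of 10% and 90% put 52.0% of cells in the middle range in place of 36.0%, and a minimum of 10 GAPC UMIs put 50% in the high range, while a minimum of 3 put 13.3% there in place of 24.0%. GAPC2 in cells with GAPC3 was 55.8% when 2 UMIs were asked and 32.7% when thinned, and in cells without GAPC3 46.3%, 42.6% and, over all cells, 63.6%. Thinning lowers the share of all cells with a UMI by construction, and the minimum of GAPC UMIs counts those of GAPC3 itself. The cause of these shifts was otherwise not tested. Folds of cluster 6 and of the pools kept their direction under each alternative run, from 2.94 to 3.25 for GAPC3 in cluster 6. The correlation of GAPC2 with PPDK2 was 0.05 without centring and 0.02 over all cells. No paired analysis was possible because the cells form 1 group.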
